A study of Mus musculus with 10 samples.

Results

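ERK-responsive transcription factors of the ETS family were examined in the hearts of *Rit1* M90I/+ mice given a MEK inhibitor or its vehicle. The group was defined by gene symbol and holds 10 of the 54532 genes in the deposited table: *Etv1*, *Etv4* and *Etv5* of the PEA3 subfamily, the ternary complex factors *Elk3* and *Elk4*, the founding members *Ets1* and *Ets2*, and the repressors *Etv3*, *Etv6* and *Erf*. The table annotates 26 genes as ETS family transcription factors, so the group leaves 16 relatives for comparison.

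Messenger RNA was sequenced from heart tissue of 10 mice. All carried the M90I allele of *Rit1*, a RAS-related GTPase gene mutated in Noonan syndrome, in the heterozygous state; the methods describe an allele activated in the germ line with a ubiquitously expressed Cre, so it is not restricted to cardiomyocytes. The 5 mice of the MEKi group received trametinib, an inhibitor of the kinases MEK1 and MEK2 that activate ERK, at 1 mg/kg daily for 20 weeks from 4 weeks of age, and the 5 mice of the vehicle group received the carrier over the same period. No wild-type hearts were part of the comparison, so it sets treated beside untreated mutant hearts and does not ask whether any level was abnormal before treatment. The groups also differed in sex-linked transcripts, as given below.

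ETS factors bind DNA elements built around a GGAA core through a shared winged helix-turn-helix domain. Several are end points of the RAS, RAF, MEK and ERK cascade: ERK phosphorylates ETS1, ETS2 and the ternary complex factors and raises their activity, and it drives the repressor ERF out of the nucleus. The mRNA of PEA3 genes is itself raised when ERK relieves repression by Capicua, the product of *Cic*, so for these genes the transcript is a readout of the pathway, whereas for ETS factors controlled by phosphorylation the transcript need not follow activity. In the heart, ETV1 is known for its part in the fast conduction system, and ETS1, ERG and FLI1 for their part in endothelium.

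Because ETS genes can carry ETS elements in their own promoters, the reference sequence at the transcription starts was read first. The RefSeq promoter table (GRCm38.p6, 300-base windows) matched 8 of the 10 genes by symbol, all but *Etv4* and *Ets1*, with 12 windows in all. The hexamer GGAAGT, searched on both strands, was present in 6 of the 12 windows and in 4 of the 8 genes, compared with 23.8% of all 32851 windows and 26.5% of all genes in the table. Several of the windows with a match belong to *Elk4*, and some of its windows overlap, so the windows are not independent. A gene with more windows also has more places for a match. The first match of each gene is shown 5′ to 3′ along the strand of the gene, with the hexamer in capitals and 12 bases on each side, and for *Elk4* the second match is shown as well because it alone extends to the longer element CCGGAAGT:
Elk4, chr1:132007418-132007447: ttgggcctgcgaGGAAGTacgaatgtccgg
Elk4, chr1:132007542-132007571: ggcccctcccccGGAAGTgacgctcgcgct
Etv3, chr3:87525545-87525574: ctggcccagagtGGAAGTgacgaaagccgc
Etv1, chr12:38780067-38780096: gcgagttaggaaGGAAGTagtttccctcgg
Etv5, chr16:22438568-22438597 (minus strand): tgggaattgggtGGAAGTgtgtcttgtttt
The longer element, which contains the hexamer, was found in 1 of the 12 windows and in 3.89% of all windows. The Capicua octamers TGAATGAA and TGAATGGA, the AP-1 element TGANTCA and the CArG box bound by SRF were found in none of the 12, compared with 1.30%, 1.21%, 7.81% and 1.63% of all windows. At rates this low 12 windows are too few for an absence to be informative, and *Etv4* had no window. A match describes these letters in these windows only and was not tested as a binding site.

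Expression was deposited as FPKM (fragment counts scaled by gene length and by a size for each library, so that levels of different genes can be compared). The fragments recovered from these values totalled from 13647167 to 18474002 per heart. The comparison between groups used limma on log2(FPKM + 0.1). It covered 12602 genes, those averaging 0.5 FPKM or more over the hearts, with Benjamini-Hochberg adjustment over those genes, and fold changes on this scale understate the change of genes with low FPKM. Across all of them 10 genes, 0.0794%, passed an adjusted p of 0.05, 7.62% had an unadjusted p under 0.05, and 1.64% had groups that did not overlap. When X, Y and mitochondrial genes were left out, 0 of 12178 genes passed the adjusted threshold (limma), and 924 had an unadjusted p under 0.05. Transcripts of the X and Y chromosomes divided the hearts exactly as treatment did: *Xist* averaged 5.86 FPKM with MEKi but never exceeded 0.00662 FPKM with vehicle, whereas *Ddx3y* averaged 11.2 FPKM with vehicle and stood at 0 in each MEKi heart. The contributions of sex and drug to any difference between the groups therefore cannot be told apart, and because the tissue is bulk, fewer cells of a type and less RNA per cell cannot be told apart either.

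All 10 genes were detected in every heart, with a 43.8-fold span between the highest and the lowest mean. *Ets2* was the most abundant at 14.3 ± 1.28 FPKM (SD, n = 10 hearts), followed by *Elk3* at 8.35 ± 1.52, *Ets1* at 6.54 ± 0.767, *Elk4* at 4.18 ± 0.579 and *Etv5* at 4.08 ± 0.787. Lower levels were measured for *Erf* (3.43 ± 0.951 FPKM), *Etv6* (2.19 ± 0.402), *Etv3* (1.48 ± 0.227), *Etv1* (0.794 ± 0.105) and *Etv4* (0.326 ± 0.175). Within every heart *Ets2* ranked highest, and *Etv3*, *Etv1* and *Etv4* took the lowest 3 places in that order. *Elk4* and *Etv5* were neighbours that could not be ordered, since *Elk4* was the higher in 5 of 10 hearts, whereas *Elk3* exceeded *Ets1* in 9 of 10 hearts and *Etv5* exceeded *Erf* in 8 of 10.

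**Figure D1:**
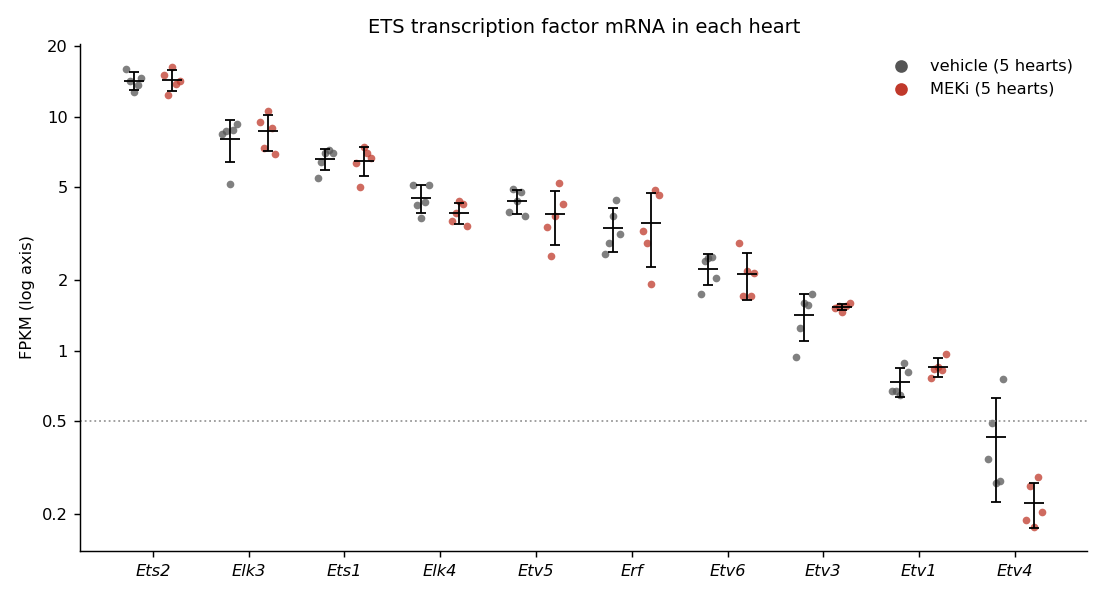
FPKM of the 10 ETS genes (log axis) in each of 5 vehicle and 5 MEKi hearts, with the mean and SD of each group as black bars and the filter of 0.5 FPKM as a dotted line. The groups overlap for every gene, and *Etv4* is the only gene whose mean lies under the filter.

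Among all 26 family genes, 6 of the 10 highest means belonged to the group. The relatives with the highest means were *Erg* (mean 8.33 FPKM, from 6.74 to 11.5 over 10 hearts) and *Fli1* (mean 6.98, from 5.04 to 10.6), both endothelial regulators. They were followed by *Gabpa* (mean 6.49, from 5.12 to 7.38), an activator of nuclear genes for mitochondrial proteins, and *Spi1* (mean 4.43, from 3.55 to 5.76). Of the 9 family genes under the filter, 8 were relatives, and *Etv2*, which specifies blood and endothelial precursors in the embryo, was listed at 0 in all hearts. The 10 genes together supplied between 54.6 and 59.2% of the summed FPKM of the family, with the lowest share in MEKi 2 and the highest in MEKi 5.

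**Figure D2:**
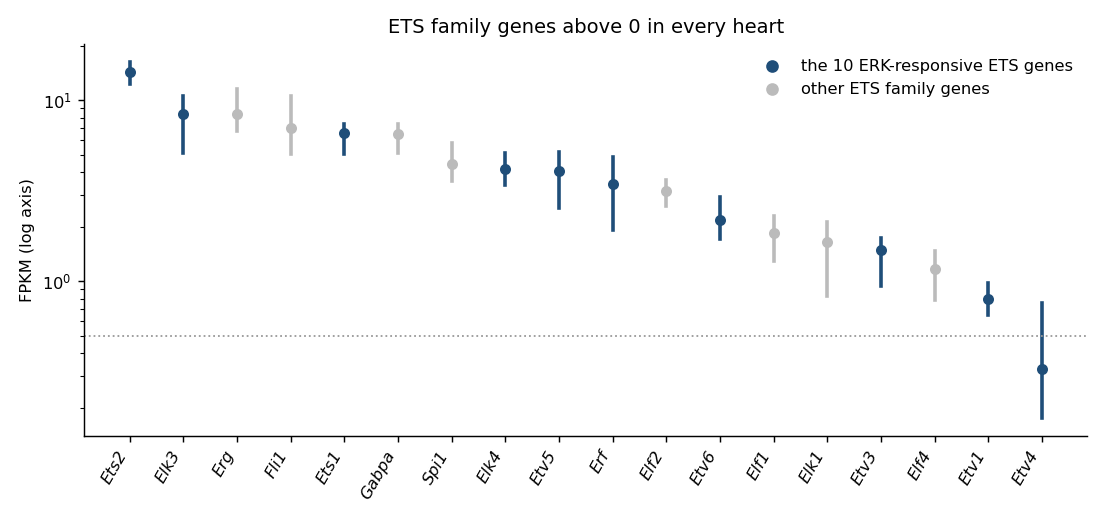
Mean FPKM over 10 hearts (points, log axis) and the lowest to highest heart (lines) for the 18 ETS family genes above 0 in every heart, with the 10 ERK-responsive genes in blue and relatives in grey. *Ets2* stands at the top at 14.3 FPKM, the endothelial relatives *Erg* and *Fli1* sit beside *Elk3* and *Ets1*, and *Etv4* is the lowest of the 18.

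With treatment, none of the 9 genes above the filter passed the test (limma, adjusted p from 0.737 to 0.994). Their fitted log2 fold changes ran from -0.21 for *Etv5* to 0.19 for *Etv1*, 5 were higher and 4 lower, and the median was 0.0060 compared with 0.01 for all genes tested. The count at an unadjusted p under 0.05 was also 0 of 9, beside 7.62% of all genes, and 0 of the 10 genes had groups that did not overlap, beside 1.64%. The smallest unadjusted p among the 9 was 0.124, for *Elk4*, from limma.

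**Figure D3:**
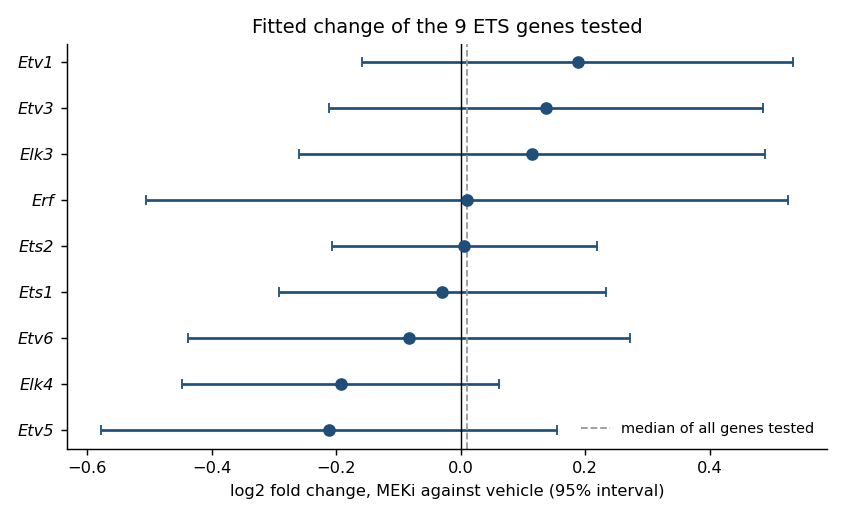
Fitted log2 fold change of MEKi against vehicle for the 9 ETS genes that passed the filter (points), with 95% intervals from limma (lines), n = 5 hearts per group. Every interval includes 0, and the dashed line marks the median of all 12602 genes tested, 0.01.

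Of the PEA3 genes, *Etv5* (chr16:22381309-22439719, minus strand; coordinates of genes are those of the table, GRCm38) was the most abundant, and it codes for an activator that is induced by receptor tyrosine kinase signalling in many tissues. It was at 3.90, 4.92, 4.37, 4.74 and 3.77 FPKM in vehicle hearts 1 to 5. In MEKi hearts 1 to 5 it was at 3.37, 2.54, 3.75, 5.18 and 4.23 FPKM. Of the MEKi hearts, 3 lay below every vehicle heart and 1 lay above every vehicle heart, so the groups overlapped from both sides. The mean was 4.34 ± 0.506 FPKM with vehicle and 3.82 ± 0.982 with MEKi (SD, n = 5 each). The fitted log2 change was -0.21 (SE 0.168, limma adjusted p = 0.808), and its 95% interval spans -33.0% to 11.3%. Without MEKi 2 the log2 fold change was -0.08, and without MEKi 4 it was -0.33.

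*Etv1* (chr12:38779380-38870484, plus strand), which also marks the fast conduction system of the heart, was near the lower limit of the genes tested. Its values were 0.670, 0.673, 0.645, 0.886 and 0.811 FPKM in vehicle hearts 1 to 5. In MEKi hearts 1 to 5 they were 0.764, 0.837, 0.850, 0.828 and 0.972 FPKM. All 5 MEKi hearts lay above the vehicle median of 0.673 FPKM, but 4 of the 5 lay within the vehicle range. The log2 fold change was 0.19 (SE 0.158, limma adjusted p = 0.818), and its 95% interval spans -10.4% to 44.8%. *Etv1* and *Etv5*, which belong to the same subfamily, thus had fitted changes of opposite sign, and neither passed the test.

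*Etv4* (chr11:101769742-101785371, minus strand), the third PEA3 gene and a common transcript of ERK output, was the lowest member and lay under the filter, so it has no adjusted p in the fit. It was at 0.345, 0.492, 0.272, 0.278 and 0.753 FPKM in vehicle hearts 1 to 5, from 18, 22, 12, 12 and 34 fragments. It was at 0.188, 0.263, 0.175, 0.288 and 0.205 FPKM in MEKi hearts 1 to 5, from 10, 14, 8, 16 and 10 fragments. Of the MEKi hearts, 4 lay below every vehicle heart, and MEKi 4 lay above vehicle 3 and vehicle 4. The mean was 0.428 ± 0.202 FPKM with vehicle and 0.224 ± 0.0491 with MEKi (SD, n = 5 each), a difference of -47.6%, and the difference of mean log2(FPKM + 0.1) was -0.64 (exact permutation of the group labels, two-sided p = 0.0317, where 0.00794 is the smallest p possible). This p stands for 1 of 10 genes and is not adjusted over them.

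*Etv4* was lower with MEKi whichever heart was left out, but it rested on few fragments, and whether its p lay under 0.05 depended on single hearts in designs with fewer assignments. The 95% Poisson interval of vehicle 5, the highest heart, ran from 0.521 to 1.05 FPKM, and that of MEKi 3, the lowest, from 0.0758 to 0.346 FPKM, and these intervals cover counting error only. Without vehicle 5 the difference was -0.45 (exact permutation p = 0.0556), and without MEKi 1, MEKi 3 or MEKi 5 it was -0.60, -0.59 or -0.62 (exact permutation p = 0.0635 for each). When every gene above 0 in any heart was fitted, the log2 fold change of *Etv4* was -0.64 with a limma adjusted p of 0.821. Vehicle 5 was also the highest heart for the summed markers of macrophages (315.0 FPKM, compared with 153 to 233 in the other 9 hearts), endothelium (250.1 FPKM) and fibroblasts (234.6 FPKM), and their part in the difference was not tested.

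**Figure D4:**
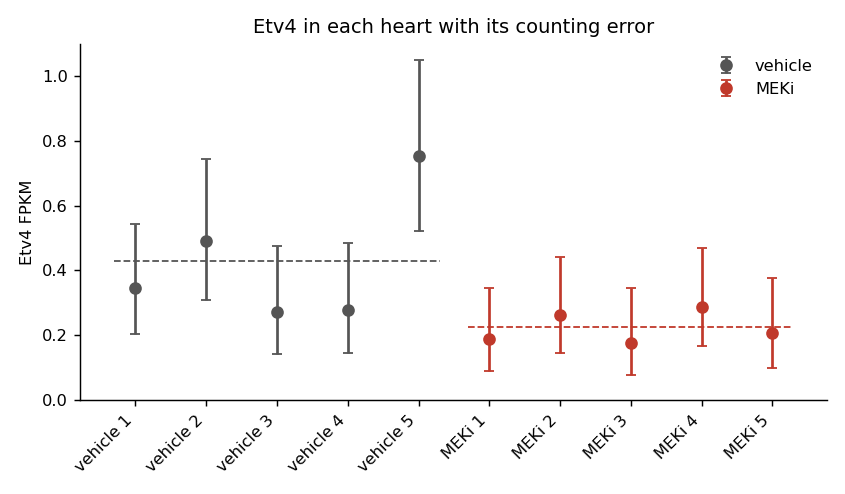
*Etv4* FPKM in each heart (points) with the 95% Poisson interval of its fragment count (lines), and the mean of each group as a dashed line. Vehicle 5 at 0.753 FPKM stands above the rest, and MEKi 4 at 0.288 FPKM lies above vehicle 3 and vehicle 4.

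The ternary complex factors bind beside SRF at immediate early genes, where ELK4 activates and ELK3 represses until ERK phosphorylates it. *Elk4* (chr1:132007607-132032612, plus strand) was at 5.10, 4.19, 3.68, 4.30 and 5.08 FPKM in vehicle hearts 1 to 5. In MEKi hearts 1 to 5 it was at 3.59, 3.87, 4.36, 4.22 and 3.41 FPKM. The lowest MEKi hearts, 1 and 5, lay below every vehicle heart, and the other 3 lay within the vehicle range. The mean was 4.47 ± 0.614 FPKM with vehicle and 3.89 ± 0.403 with MEKi (SD, n = 5 each). The fitted log2 change was -0.19 (SE 0.117, limma adjusted p = 0.737), and its 95% interval spans -26.7% to 4.37%. *Elk4* was lower with MEKi under each of 23 alternative settings, where its adjusted p ran from 0.476 to 0.953.

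*Elk3* (chr10:93247414-93311135, minus strand) was at 8.40, 8.67, 5.13, 8.73 and 9.30 FPKM in vehicle hearts 1 to 5. In MEKi hearts 1 to 5 it was at 9.49, 7.33, 10.5, 8.92 and 6.95 FPKM. Vehicle 3 stood apart below all other hearts, and with it the log2 fold change was 0.11 (SE 0.172, limma adjusted p = 0.911), whereas without it the value was -0.04. Vehicle 3 also had a low sum of endothelial markers, 149.1 FPKM, beside 148.9 FPKM in MEKi 5, the heart with the second lowest *Elk3*. The parts of endothelial RNA in these values were not tested. *Elk3* shares genomic sequence with *Cdk17* on the opposite strand (mean, 2.91 FPKM), and *Elk4* with *Mfsd4a* on the opposite strand (0.855 FPKM), and without a stated strand setting reads from these pairs cannot be assigned with certainty.

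*Ets1* (chr9:32636221-32757820, plus strand) and *Ets2* (chr16:95702075-95721051, plus strand), which code for activators that ERK phosphorylates beside their Pointed domain, did not pass the test either. *Ets2* was at 16.0, 14.2, 12.7, 13.6 and 14.7 FPKM in vehicle hearts 1 to 5 and at 15.0, 12.3, 16.3, 13.7 and 14.2 FPKM in MEKi hearts 1 to 5. The means were 14.2 ± 1.23 and 14.3 ± 1.48 FPKM (SD, n = 5 each), and the 95% interval of the change spans -13.3% to 16.3%. Its residual SD of 0.137 on the log2 scale was at percentile 10.7 of all genes tested, whose median was 0.246. *Ets1* was between 5.47 and 7.17 FPKM in vehicle hearts and between 5.02 and 7.40 FPKM in MEKi hearts, with a fitted log2 change of -0.03 (SE 0.120, limma adjusted p = 0.967) and a 95% interval from -18.4% to 17.5%. Changes inside these intervals could not be told from 0 with 5 hearts per group.

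None of the repressors passed the test, and *Erf* varied most among hearts. *Erf* (chr7:25242561-25250761, minus strand), which codes for an ERK-regulated repressor, was at 2.59, 2.88, 3.74, 4.40 and 3.16 FPKM in vehicle hearts 1 to 5 and at 3.24, 2.88, 1.93, 4.85 and 4.61 FPKM in MEKi hearts 1 to 5. The lowest and the highest of all 10 hearts, MEKi 3 and MEKi 4, were both in the MEKi group. Its residual SD of 0.427 was the widest of the 9 genes tested, at percentile 82.5 of all genes, and its log2 fold change was 0.01 (SE 0.236, limma adjusted p = 0.994). Its sign is not settled, because it was -0.12 without MEKi 4 and 0.20 without MEKi 3.

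*Etv3* (chr3:87525407-87540156, plus strand) and *Etv6* (chr6:134035700-134270158, plus strand), which code for repressors with an ETS domain, spread in different ways. *Etv3* was at 0.937, 1.25, 1.60, 1.57 and 1.74 FPKM in vehicle hearts 1 to 5, but at only 1.46 to 1.59 FPKM over the MEKi hearts, all within the vehicle range. The coefficient of variation was 22.8% in vehicle hearts and 3.06% in MEKi hearts, where counting error alone would give 6.85% and 6.19%. The difference in spread was not tested, and without vehicle 1 the log2 fold change of *Etv3* went from 0.14 to 0.0062. *Etv6* ran from 1.74 to 2.52 FPKM with vehicle and from 1.70 to 2.90 FPKM with MEKi, with a fitted log2 change of -0.08 (SE 0.163, limma adjusted p = 0.936).

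In single hearts several members lay on the same side of their means. The hearts named here were picked after their values were seen. The matching shares over all genes are not given, so the pattern is not read as particular to the ETS genes. MEKi 2 was the lowest of 10 hearts for 4 of the 10 genes and among the lowest 3 for 6, and the median deviation of the 10 genes from their means was -0.18 on the log2 scale in this heart. MEKi 2 also had high sums of atrial markers (1136 FPKM) and adipocyte markers (96.7 FPKM), but vehicle 4 had higher sums of both (2196 and 98.1 FPKM) and deviated the other way, with 8 of the 10 genes above their means and a median deviation of 0.12. Vehicle 5 followed in the atrial sum with 842 FPKM, and the other 7 hearts had at most 473 FPKM. Without these 3 hearts the median log2 fold change of the 9 genes was 0.13, compared with 0.0074 for all genes, and the part of atrial tissue in the values was not tested.

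**Figure D5:**
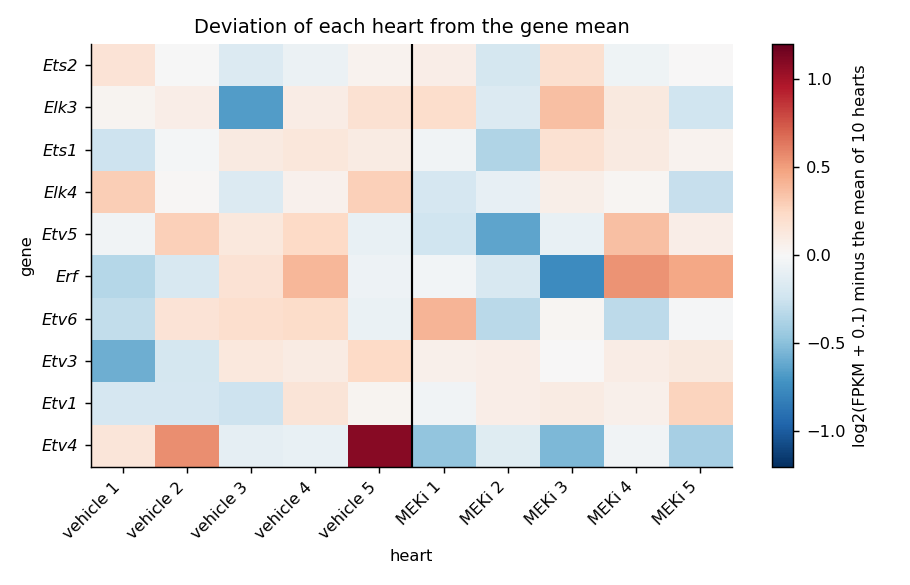
Deviation of log2(FPKM + 0.1) in each heart (columns) from the mean of the gene over 10 hearts, for the 10 ETS genes (rows), with red above and blue below the mean and a line between the groups. *Etv4* in vehicle 5 and *Erf* in MEKi 3 stand out, and the column of MEKi 2 is mostly blue, with a median of -0.18.

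Over the 10 hearts each gene that passed the filter was set beside the genes averaging 1 FPKM or more (10704, or 10705 for *Etv1*) to name those whose pattern between hearts was most alike. *Elk4* was closest to *Pxdn* (Pearson r = 0.97, Spearman rho = 1.00) and *Jak3* (r = 0.95), and *Etv5* to *Sco1* (r = 0.98, rho = 0.98) and *Fam76a* (r = 0.95). *Etv3* was closest to *Sp3* (r = 0.97) and *Lsm14a*, *Etv1* to *Tomm20* (r = 0.94) and *Rpl9-ps6*, *Ets1* to *Mettl15* (r = 0.95) and *Ipo9*, and *Elk3* to *Pafah1b3* (r = 0.94) and *Clcn6*. For *Etv6* the closest were *Lrp11* (r = 0.90) and *Arvcf*, for *Ets2* they were *Sardh* (r = 0.90) and *Bud13*, and for *Erf* they were *Tbk1* (r = 0.89) and *Mtmr14*. These are the highest of all the correlations computed, between genes measured in the same libraries, and they describe these 10 hearts only.

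No listed regulator of ETS factors passed the test. Of the 15 that were tested, 7 were higher and 8 lower, with a median log2 fold change of -0.01. The adjusted threshold was passed by 0, and 0 had an unadjusted p under 0.05 (limma), beside 7.62% of all genes tested. *Cic*, which lies 16942 bases from *Erf* on chromosome 7 and codes for the repressor of the PEA3 genes, was at 3.83 ± 0.438 FPKM with vehicle and 3.89 ± 0.290 with MEKi (SD, n = 5 each; log2 fold change 0.03, limma adjusted p = 0.965). *Trib3*, a Tribbles pseudokinase gene, had the largest rise in fit, 0.90 (SE 0.564, limma adjusted p = 0.747), but this came from 25.5 FPKM in MEKi 5 beside 1.49 to 3.27 FPKM in the other 9 hearts. *Mkl1*, an SRF coactivator gene, had the largest fall, -0.16.

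Transcripts commonly read as output of the pathway were listed beside the ETS genes. Of 7 tested MAPK output transcripts 6 were lower, and the median log2 fold change was -0.37. Of all genes tested, 52.1% were higher with MEKi. An unadjusted p under 0.05 was found for 4 of the lower genes and the 1 higher gene (limma), beside 7.62% of all genes tested. The adjusted threshold was passed by 0 of the 7 (limma). *Spry4*, a feedback inhibitor gene, had the largest fall, -0.82 (SE 0.167, limma adjusted p = 0.195), and *Epha4*, an Ephrin receptor gene, the only rise, 0.39. Of the PEA3 genes, which are read the same way, *Etv4* and *Etv5* had negative differences, -0.64 and -0.21, and *Etv1* a positive one, 0.19.

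Among 7 tested genes driven by ELK factors with SRF, 3 were higher and 4 lower, with a median of -0.07. An unadjusted p under 0.05 was found for 2 of the lower ones (limma), beside 7.62% of all genes tested, and 0 passed the adjusted threshold. Among these 7, *Egr1*, an immediate early gene and target of ternary complex factors, had the largest fall, -1.08 (SE 0.349, limma adjusted p = 0.478), and *Ier3* the largest rise, 0.10. *Egr2*, *Egr3* and *Fosb*, also listed, lay under the filter and were not tested. Their means were lower with MEKi, at 0.0674, 0.233 and 0.0405 FPKM, beside 0.208, 0.489 and 0.105 FPKM with vehicle. They rested on at most 19, 54 and 15 fragments in any heart. For *Egr2* and *Fosb* 4 MEKi hearts lay below every vehicle heart. For *Egr3* all 5 MEKi hearts lay within the vehicle range of 0.110 to 0.842 FPKM. In the same hearts the ternary complex factors *Elk3* and *Elk4* had changes of 0.11 and -0.19. Of the 6 fast conduction genes linked to *Etv1*, 3 were higher and 3 lower, and 0 passed the adjusted threshold (limma). An unadjusted p under 0.05 was found for 3 (limma), 2 higher and 1 lower, beside 7.62% of all genes tested. The lower one, *Hcn4*, a pacemaker channel gene, had a log2 change of -0.44 (limma adjusted p = 0.640) with 4 MEKi hearts below every vehicle heart. All 6 atrial markers tested were also lower with MEKi, with a median log2 change of -1.32, and 0 had an unadjusted p under 0.05 (limma). Atrial sums ran from 192 to 2196 FPKM with vehicle and from 143 to 1136 FPKM with MEKi. The part of atrial tissue in *Hcn4* was not tested. Of the 2 higher conduction genes, *Irx3*, a transcription factor gene of the conduction system, had the largest rise, 0.49 (SE 0.148, limma adjusted p = 0.456). The other, *Nkx2-5*, had a log2 change of 0.30 (limma adjusted p = 0.461). For both genes all 5 MEKi hearts lay above every vehicle heart, and 1.64% of all genes tested had groups that did not overlap. Of 6 cardiomyocyte markers, 5 were higher with MEKi and 1 lower, with a median log2 change of 0.14. An unadjusted p under 0.05 was found for 0 of these markers (limma). The part of cardiomyocyte RNA in *Irx3* and *Nkx2-5* was not tested.

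Of 12 endothelial genes linked to ETS factors, 10 were lower and 2 higher, with a median of -0.12, where 52.1% of all genes tested were higher. The adjusted threshold was passed by 0, and 0 had an unadjusted p under 0.05 (limma), beside 7.62% of all genes tested. *Kdr*, the main VEGF receptor gene, had the largest fall, -0.27, and *Tek*, the angiopoietin receptor gene, the largest rise, 0.03. Of these 12 genes, 9 are also the endothelial markers, so the marker sum is no separate measure of endothelial content. The sum ran from 149 to 250 FPKM in vehicle hearts and from 149 to 191 FPKM in MEKi hearts. All 6 macrophage markers were lower with MEKi, 3 of them with an unadjusted p under 0.05 (limma), beside 7.62% of all genes tested. Their sums were 174 to 315 FPKM with vehicle and 153 to 192 FPKM with MEKi. Among the relatives of the ETS group, 8 were tested, and 3 were higher and 5 lower. The adjusted threshold was passed by 0, and 1 had an unadjusted p under 0.05 (limma), beside 7.62% of all genes tested. That gene, *Elf4*, was at 1.34 ± 0.151 FPKM with vehicle and 0.974 ± 0.139 with MEKi (SD, n = 5 each; log2 fold change -0.43, limma adjusted p = 0.512), and *Elf1* had the largest rise, 0.18. *Erg* and *Fli1*, with fold changes of -0.10 and -0.16, and *Elk1*, the relative of *Elk3* and *Elk4*, with 0.08, did not pass the test.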

How the data were processed

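Poly(A)-selected RNA from 10 hearts was sequenced. The authors deposited 1 table of FPKM, scaled by gene length and by a size for each library that did not equal its fragment total. The submitters' processing notes name fastp, STAR 2.5, HTSeq 0.6.1 and mm10, without roles or order; a strand setting is not given in the sources used here. All 10 columns were mapped to a heart by label. Multiplying FPKM by gene length gave whole multiples of 1 unit per heart, within 0.01, for 100% of values; these are the fragments behind each value and set the precision of low genes. Groups were compared with limma 3.58.1 in R 4.3.3 (lmFit, eBayes with trend, two-sided) on log2(FPKM + 0.1) for genes averaging 0.5 FPKM or more. The threshold was 0.05 after Benjamini-Hochberg adjustment. The fit was also run on simulated counts, drawn with the same spread setting for every gene and without differences in sex or tissue makeup. Those settings differ from these hearts, and no result here rests on that run. *Etv4*, under the filter, was compared by an exact permutation test over all assignments of hearts to groups. Summaries used Python 3.11.15, numpy 2.4.6, pandas 2.3.3 and scipy 1.17.1.

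The members and gene lists were chosen with earlier results of these data known. All members are named; of every other list, genes past the threshold, the largest rise and fall among genes averaging 1 FPKM or more, and *Cic*, *Elk1*, *Erg* and *Fli1* for their roles. The largest fall among the fast conduction genes is not reported here. *Xist*, *Ddx3y*, *Cdk17*, *Mfsd4a*, *Gabpa*, *Etv2* and *Hcn4* were added after their values were seen. Gene coordinates in the table equal those of GENCODE M21 (GRCm38) for 98.3% of 54409 genes and for all 10 members. Replicate numbers are shared by the groups but do not pair the hearts: correlations of same-numbered hearts ran from -0.15 to -0.02. Alternatives were other pseudocounts, filters, scales, weights and gene sets, voom on fragments, a replicate block and leaving out hearts. Recorded sex of each heart was not used here.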

Additional observations from a re-analysis of the deposited data

Results flagged for a closer look

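Of 38 groups of 5 hearts examined for a heart far from the others, 4 were found, where chance gives about 1 in 20, or 1.9. *Elk3* in vehicle 3 was at 5.13 FPKM, below 8.40 to 9.30 FPKM in the other 4 vehicle hearts. The summed cardiomyocyte markers in MEKi 5 were at 9858 FPKM, below 12610 to 13638 FPKM in the other 4 MEKi hearts. The summed fibroblast markers in vehicle 5 were at 234.6 FPKM, above 148.7 to 170.0 FPKM in the other 4 vehicle hearts, and vehicle 5 was also the heart with the highest *Etv4*. The summed adipocyte markers in MEKi 2 were at 96.7 FPKM, above 5.95 to 15.8 FPKM in the other 4 MEKi hearts, and MEKi 2 was the heart with the lowest value for 4 of the 10 ETS genes, whereas vehicle 4, with an adipocyte sum of 98.1 FPKM, was lowest for 0 of them and above the mean for 8. The part of these hearts' tissue makeup in the ETS values was not tested.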

How the results depend on the processing

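Across 24 alternative settings, 0 of the tested ETS genes passed the adjusted threshold in any, with a lowest adjusted p of 0.476 (*Elk4* without vehicle 3), while the calls over all genes ran from 0 (X, Y and mitochondrial genes left out) to 18 (array weights). The replicate block, with numbers that do not pair the hearts, gave 0 of 9 members and 4 of all genes, and a median log2 fold change of 0.0060; no heart correlated best with its own number. Leaving out each heart in turn moved the median from -0.07 to 0.06, and leaving out vehicle 4, vehicle 5 and MEKi 2 together moved it to 0.13. Fitted changes near 0 changed sign: *Ets1* was 0.048 on the TPM scale, which moved the median of all genes to 0.09, and 0.13 without those 3 hearts, *Ets2* -0.0020 after quantile normalization, *Erf* -0.045 with array weights and *Etv6* 0.0043 without the 3 hearts. With each heart left out in turn, *Ets1* ran from -0.095 to 0.058, *Ets2* from -0.042 to 0.059, *Erf* from -0.12 to 0.20 and *Elk3* from -0.038 to 0.19. The cause was not tested. The difference in *Etv4*, -0.64 as reported, ran from -0.75 to -0.45 with each heart left out (exact permutation p from 0.0159 to 0.0635, a choice made after seeing the data) and was -0.57 without the 3 hearts (exact permutation p = 0.0857, smallest possible 0.0286). Voom on fragments for genes with at least 10 of them, also added later, gave *Etv4* -0.81 (limma adjusted p = 0.706).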
